A study of Homo sapiens with 22 samples.

Results

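Accessible chromatin was mapped by ATAC-seq, in which a transposase cuts and tags the DNA it can reach, in WM989 cells, a BRAF-mutated human melanoma cell line. The regions described here had an ATAC-seq peak in every NGFR-High library and in no EGFR_High library. Peaks of the 12 libraries were merged into regions wherever they overlapped by 1 bp or more, and the 152014 regions with a peak in at least 3 libraries were kept. Of these, 2657 regions (1.75%) had a peak in all 3 NGFR-High libraries and in 0 of the 3 EGFR_High libraries, and these are the members. The members were chosen by these peak calls, so their values in both sorts are a description and are not tested. The opposite rule, a peak in all 3 EGFR_High and in 0 of the 3 NGFR-High libraries, found 559 regions, which are called the reverse set. Both set sizes varied with the choice of peaks (1954 and 719 with an equal number per library, and other values in the last section). The difference in size was not tested.

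All 4 sorts came from untreated, drug-naive WM989 cells of a bottlenecked line derived from 1 clone. Live cells were stained for EGFR and NGFR protein and separated by flow cytometry. The sorts were EGFR_High cells, NGFR-High cells, EGFR-NGFR-High cells, which stained strongly for both proteins, and cells labelled Mix. The study's methods list a sort negative for both markers and do not call it Mix. Elsewhere the study uses mixed for cells not selected by a marker, so which of these the Mix cells were is not settled. ATAC-seq was run on each sort right after sorting, with 3 libraries per sort. The labels number these libraries but do not say that they came from separate cultures, so p-values measure the spread between these samples only, which may be technical. A sort was defined by surface protein at 1 time, and a region with no peak in a library is one that did not pass the peak caller's threshold there. Whether such a region was closed was not measured.

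NGFR is the low-affinity neurotrophin receptor, a surface protein of neural crest cells that also marks melanoma cells with few melanocyte features. EGFR is the receptor of epidermal growth factor, and both proteins mark rare melanoma cells that are primed to survive targeted therapy. Most accessible regions outside gene starts are candidate enhancers, where transcription factors bind short DNA words. AP-1, a dimer of FOS and JUN family proteins, and the TEAD factors of the YAP pathway are known for binding enhancers of invasive melanoma cells. MITF, which binds E-boxes, and SOX10 hold the melanocyte program, and POU factors bind the octamer word.

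The sequences of 4 members are shown first because they carry AP-1, TEAD or POU words, which were found more often in members than in all regions kept. Each is 300 bases of the hg38 plus strand centred on the strongest NGFR-High summit. Capitals mark AP-1 words (TGANTCA, both strands), AP-1 and TEAD (GGAATG, both strands) words, or the POU octamer (ATGCAAAT, both strands), as named for each. The first 2 and the last are among the 6 members with the highest mean fold enrichment in NGFR-High cells, and the third lies in an intron of NGFR itself.
Upstream of TBC1D22A, chr22:46754422-46754721, AP-1 in capitals: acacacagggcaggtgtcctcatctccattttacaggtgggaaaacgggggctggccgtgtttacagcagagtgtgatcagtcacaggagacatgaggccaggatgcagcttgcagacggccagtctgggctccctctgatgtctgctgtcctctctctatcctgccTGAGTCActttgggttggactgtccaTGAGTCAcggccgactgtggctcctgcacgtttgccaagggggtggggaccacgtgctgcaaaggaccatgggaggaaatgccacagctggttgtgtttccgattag
Intron of LHFPL2, chr5:78496447-78496746, AP-1 and TEAD in capitals: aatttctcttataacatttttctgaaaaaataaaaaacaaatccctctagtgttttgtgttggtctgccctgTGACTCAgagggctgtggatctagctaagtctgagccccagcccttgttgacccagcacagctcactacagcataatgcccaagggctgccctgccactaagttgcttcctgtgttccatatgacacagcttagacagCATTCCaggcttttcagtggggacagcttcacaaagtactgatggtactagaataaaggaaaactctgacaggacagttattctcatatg
Intron of NGFR, chr17:49498066-49498365, AP-1 in capitals: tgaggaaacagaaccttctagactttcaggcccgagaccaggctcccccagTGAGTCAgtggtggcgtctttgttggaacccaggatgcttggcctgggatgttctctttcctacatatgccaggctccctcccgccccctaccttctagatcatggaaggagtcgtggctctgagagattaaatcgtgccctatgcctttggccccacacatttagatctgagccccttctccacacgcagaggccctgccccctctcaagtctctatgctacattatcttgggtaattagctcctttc
Intron of the lncRNA LNCAROD, chr10:52451755-52452054, POU octamer in capitals: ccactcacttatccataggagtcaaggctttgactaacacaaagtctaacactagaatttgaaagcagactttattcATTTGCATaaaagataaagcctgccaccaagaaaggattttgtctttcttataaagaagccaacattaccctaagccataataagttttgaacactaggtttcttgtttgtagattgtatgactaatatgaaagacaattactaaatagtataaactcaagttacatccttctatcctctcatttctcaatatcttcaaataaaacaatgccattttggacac
The TBC1D22A member holds 2 copies of the AP-1 word close together. A match is a word in the sequence and was not tested for binding.

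The peak lists hold no read counts, so the number of peaks is the only measure of depth used here. A library held between 148575 and 180941 distinct peaks. The medians of the sorts were 170461 in NGFR-High, 154424 in EGFR_High, 173969 in EGFR-NGFR-High and 162384 in Mix libraries. The starts of MITF, SOX10, PMEL, MLANA, TYR and DCT, the defining markers of the melanocyte lineage, had a peak in all 12 libraries, and so did those of NGFR, EGFR, NT5E and FN1, while that of AXL, another marker of primed cells, had one in 2. Of 10 markers of other cell types, 7 had no peak at their start in any library, among them PTPRC, CD3E, VWF, KRT5, KRT14 and ALB, while EPCAM had one in 12, CD14 in 8 and PECAM1 in 1. No member lay at the start of any of these markers. A second readout was the single-cell RNA-seq of untreated WM989 cells (12531 cells), in which the authors' clusters separate primed from drug-susceptible cells. Its labels used here do not separate NGFR-High from EGFR_High cells.

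The members were next followed into the pair of sorts that the rule did not use. A peak was found at 84.7%, 68.8% and 58.4% of members in the 3 EGFR-NGFR-High libraries (70.6% ± 13.2, SD, n = 3). In the 3 Mix libraries the shares were 21.4%, 30.2% and 27.9% (26.5% ± 4.59, SD, n = 3). Members were thus found open more often in each library of double-positive cells than in any library of Mix cells. Over all regions kept the shares were 88.8%, 82.2% and 78.1% in EGFR-NGFR-High and 71.8%, 77.2% and 76.0% in Mix libraries, so that those groups also did not overlap but lay far closer together. The reverse set gave 62.4%, 42.8% and 39.2% in EGFR-NGFR-High and 35.1%, 42.2% and 39.7% in Mix libraries, and these ranges overlapped. EGFR-NGFR-High replicate 1, with the most peaks of all libraries, was the highest of its sort in all 3 sets.

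**Figure D1:**
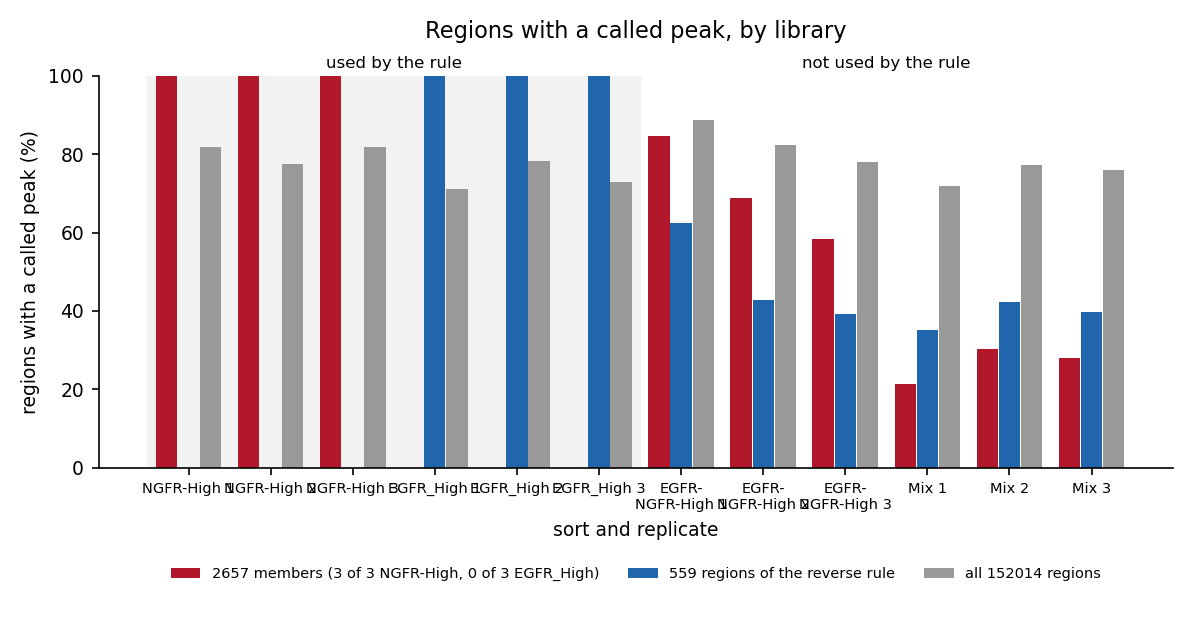
Percent of regions with a called peak in each of the 12 libraries (horizontal axis: sort and replicate, vertical axis: percent), for the members, the reverse set and all regions kept. By the rule the members are at 100% in NGFR-High and 0% in EGFR_High libraries. In the sorts the rule did not use they lie between 58.4% and 84.7% in EGFR-NGFR-High and between 21.4% and 30.2% in Mix libraries.

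Counted by region, 1160 members had a peak in all 3 EGFR-NGFR-High libraries, 835 in 2, 480 in 1 and 182 in none. The shares in all 3 and in none were 43.7% and 6.85%, against 69.3% and 4.48% of all regions kept. In Mix cells the order was turned round, with 248 members in all 3 libraries, 414 in 2, 541 in 1 and 1454 in none, where 9.33% and 54.7% of members in all 3 and in none stand against 63.1% and 13.3% of all regions kept. A peak in all 3 EGFR-NGFR-High and in no Mix library was found at 704 members (26.5%), against 4.8% of all regions kept and 35 regions (6.26%) of the reverse set. The opposite state, no EGFR-NGFR-High and all 3 Mix libraries, was found at 11 members (0.414%), against 0.845% of all regions kept and 10 regions (1.79%) of the reverse set. Leaving out 1 library loosens both calls, and the members' shares were then 27.4% to 35.9% for the first (5.17% to 7.59% of all regions) and 0.677% to 1.28% for the second (1.21% to 1.69% of all regions). More EGFR-NGFR-High than Mix libraries had a peak at 71.5% of members and fewer at 11.6%, where the shares over all regions kept were 23.6% and 12%. A further 92 members (3.46%, against 0.576% of all regions kept) had no peak in either sort and were found in NGFR-High cells alone. In the reverse set 73 regions (13.1%) had no peak in either sort. Members and the reverse set pass the minimum of 3 libraries by their rule alone, which most regions kept do not. The share over all regions kept is therefore no like background for this state.

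Regions next to the rule had other shares. Regions with 3 NGFR-High and 1 EGFR_High peaks (4698 regions), which failed the rule by 1 library, had a peak in 79.5% of EGFR-NGFR-High and 50.6% of Mix libraries on average, and 16% of them were in all EGFR-NGFR-High and no Mix libraries. Regions with 2 NGFR-High and 0 EGFR_High peaks (5655 regions) gave 53.8%, 25.1% and 12.4%. Regions of this second class were kept only with a peak in at least 1 EGFR-NGFR-High or Mix library, which raises their shares, while members pass that minimum by the rule alone, so the 2 classes are not compared. Regions with a peak in all 6 libraries of both sorts (85732 regions) were at 99.2% and 95.9%, with 1.52% in the first state.

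**Figure D2:**
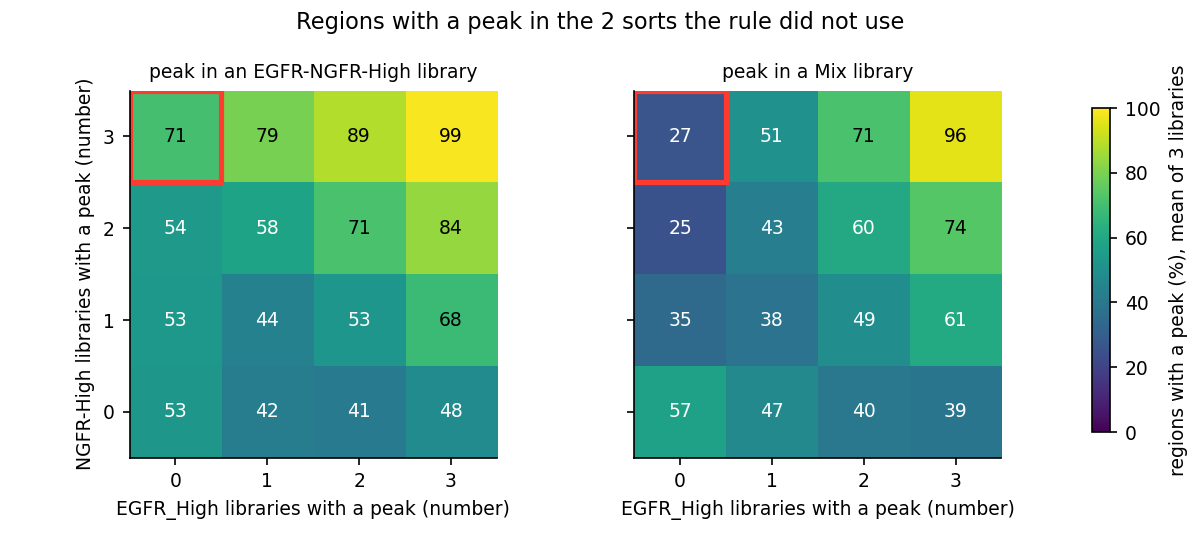
Mean percent of regions with a peak over the 3 EGFR-NGFR-High libraries (left) and the 3 Mix libraries (right), for every number of NGFR-High (vertical axis) and EGFR_High libraries (horizontal axis) with a peak. The members are the cell with 3 NGFR-High and 0 EGFR_High libraries, at 70.6% on the left and 26.5% on the right.

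Members were weak and narrow peaks among the regions kept. Their fold enrichment, the height of the peak summit over the local background as the peak caller gave it, had medians of 5.17, 4.81 and 4.70 in the 3 NGFR-High libraries, against 9.54, 10.1 and 9.40 for all kept regions with a peak there. The −log10 q of the members had medians of 6.25, 5.13 and 4.68, against 18.1, 18.4 and 15.7. The mean over the 3 NGFR-High libraries ran from 3.17 to 12.5 fold, with 7 members at 10 or more and 691 members with a −log10 q of at least 5 in each NGFR-High library. Of all kept regions with 3 NGFR-High peaks, 7.18% lay under the members' median of 5.09 fold. The median width was 330 bp (range 152 to 1126), against 471 bp for all regions kept and 324 bp for the reverse set, and 4 members were over 1000 bp wide. Where a member had a peak in the other sorts it was as weak there, with medians of 5.65, 5.20 and 4.96 fold in EGFR-NGFR-High and 4.93, 4.71 and 4.84 in Mix libraries.

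The rule has a threshold on both sides, and the values next to it were small. In the 4698 regions that failed the rule by 1 EGFR_High library, the EGFR_High peak had a median fold enrichment of 4.70 and a median −log10 q of 4.71, and in 2.17% of them it was under 2. On the other side, 87 members had a −log10 q under 2 in an NGFR-High library. The 3 members just inside the threshold were chr12:26456272-26456495 in an intron of ITPR2 (3.18, 3.50 and 3.29 fold), chr8:22658830-22659119 in an intron of BIN3 (3.18, 3.50 and 2.82 fold) and chr3:52609406-52609877 over a coding exon of PBRM1 (3.58, 3.50 and 3.29 fold). These lie close to the lowest fold enrichment that any NGFR-High library listed, between 2.78 and 3.06. For such regions a called and an uncalled peak can differ by little signal.

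Fold enrichment in EGFR-NGFR-High minus Mix cells was tested with limma on the log2 scale, over the 86514 regions with a peak in all 6 libraries. Of these, 7161 (8.28%) were higher and 6371 (7.36%) lower at an adjusted p of 0.05. Only 109 members could be tested, since 2548 lacked a peak in at least 1 of the 6 libraries. Among the 109, 1 member was higher and 2 were lower, with 4 and 7 at an unadjusted p under 0.05, and the median log2 difference was -0.10 against -0.03 for all regions tested. Both shares of members (0.917% and 1.83%) lay under those of all regions tested. In the reverse set 0 of 24 regions tested were higher and 5 lower, with a median of -0.40. Only members with a peak in every Mix library enter this fit, while 1454 members had no Mix peak. Its shares and median thus cannot describe members absent from Mix libraries. Leaving out 1 library changed the counts of members called and the number of members with a value in every library left. Without Mix replicate 1, 4 of 188 members were higher and 1 lower, beside 6637 and 4742 of 89933 regions. Without EGFR-NGFR-High replicate 2, 2 of 136 were higher and 1 lower, beside 5646 and 4959 of 88473 regions. Without Mix replicate 3, 2 of 159 were higher and 3 lower, beside 6603 and 5795 of 88532 regions. The number lower was 0 of 115 without EGFR-NGFR-High replicate 1 (4001 of 87174 regions), 4 of 161 without EGFR-NGFR-High replicate 3 (5807 of 89517) and 1 of 142 without Mix replicate 2 (4406 of 88077). In each of these fits 1 member was higher, beside 4434, 6534 and 6330 regions.

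The member called higher, chr1:232127271-232127551, lies between genes and holds an AP-1 word, and the start of DISC1, its nearest protein-coding gene, is 500609 bp away. It had 14.3, 8.03 and 10.4 fold in EGFR-NGFR-High and 4.03, 4.71 and 5.32 fold in Mix libraries (log2 difference 1.14, SE 0.26, limma adjusted p = 0.00115). The groups did not overlap, and its NGFR-High values of 9.94, 7.87 and 8.46 fold lay in the EGFR-NGFR-High range or close to it. The members called lower were chr15:89551550-89551946, in a lncRNA intron upstream of TICRR (log2 difference -0.86, limma adjusted p = 0.0214), and chr18:43433886-43434212, between genes with SYT4 nearest (log2 difference -0.79, limma adjusted p = 0.0310). At the TICRR member EGFR-NGFR-High cells had 3.27, 3.31 and 3.97 fold and Mix cells 4.48, 8.95 and 5.81. At the SYT4 member the values were 4.17, 3.78 and 4.47 against 8.51, 5.66 and 6.78, and again no library of one sort reached the other. Both lower calls were lost where uncalled peaks of other regions were given a value (limma adjusted p = 0.0778 and 0.0838). Their log2 differences were the same there and their standard errors larger. With the mean of summits no member was called lower, in a fit that called 1336 of 86514 regions lower, against 6371 in the fit above.

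Regions without a peak can enter the fit when each library's lowest listed fold enrichment stands in for the missing value. This alternative was chosen after seeing the data, and its imputed values carry no spread, so that its standard errors and p-values are too small where peaks are missing. Over all 152014 regions it called 13040 (8.58%) higher and 6915 (4.55%) lower, while among the members it called 514 (19.3%) higher and 18 (0.677%) lower. The median log2 difference of the 2657 members was 0.33, and 73.2% were above 0. In the reverse set it called 12 regions (2.15%) higher and 27 (4.83%) lower. The direction of the members' median turned between both fits, from -0.10 in the 109 members with a value in every library to 0.33 over all of them, and it also turned without Mix replicate 1 (0.05 over 188 members). The fit of 109 leaves out every member without a peak in all Mix libraries, so these medians cover different members.

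Of the 6 members with the highest mean fold enrichment in NGFR-High cells, 5 are described here, in order of that mean and with no test on it. All 6 had a peak in every EGFR-NGFR-High library, and the member not described had a peak in 1 Mix library, while the other 5 had none. The first, chr22:46754421-46754812, lies at -8045 bp from the start of TBC1D22A, a gene of the Rab GTPase-activating protein family (negative distances lie upstream). It had 15.1, 9.62 and 12.7 fold in NGFR-High and 17.9, 11.3 and 8.93 fold in EGFR-NGFR-High libraries, with no peak in the other 6 libraries. The second, chr5:78496432-78496770, lies in an intron of LHFPL2, with 13.9, 7.44 and 14.1 fold in NGFR-High and 13.7, 7.56 and 10.4 fold in EGFR-NGFR-High libraries. It too had no peak in the other 6 libraries, so that both sorts selected for NGFR had peaks there in every library and the other sorts had none.

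The other 3 described had this layout too. The member chr7:94811590-94812282, at -95292 bp from PPP1R9A, holds a 24-base stretch found 119 times in the hg38 chromosomes in the same orientation. It had 15.1, 10.1 and 9.87 fold in NGFR-High and 13.7, 10.9 and 7.94 fold in EGFR-NGFR-High libraries. In an intron of LNCAROD, a lncRNA beside the WNT inhibitor gene DKK1, chr10:52451676-52452225 had 14.7, 12.2 and 7.05 fold and 14.6, 9.45 and 8.93 fold. The member chr2:226185594-226186245 lies at -692 bp from the start of the gene ENSG00000235070. Its nearest protein-coding gene is IRS1, whose start is 613757 bp away. It had 11.1, 12.2 and 7.52 fold in NGFR-High and 11.0, 6.14 and 4.96 fold in EGFR-NGFR-High libraries. As Mix cells had no value at these 5, no size or test of the difference is given.

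**Figure D3:**
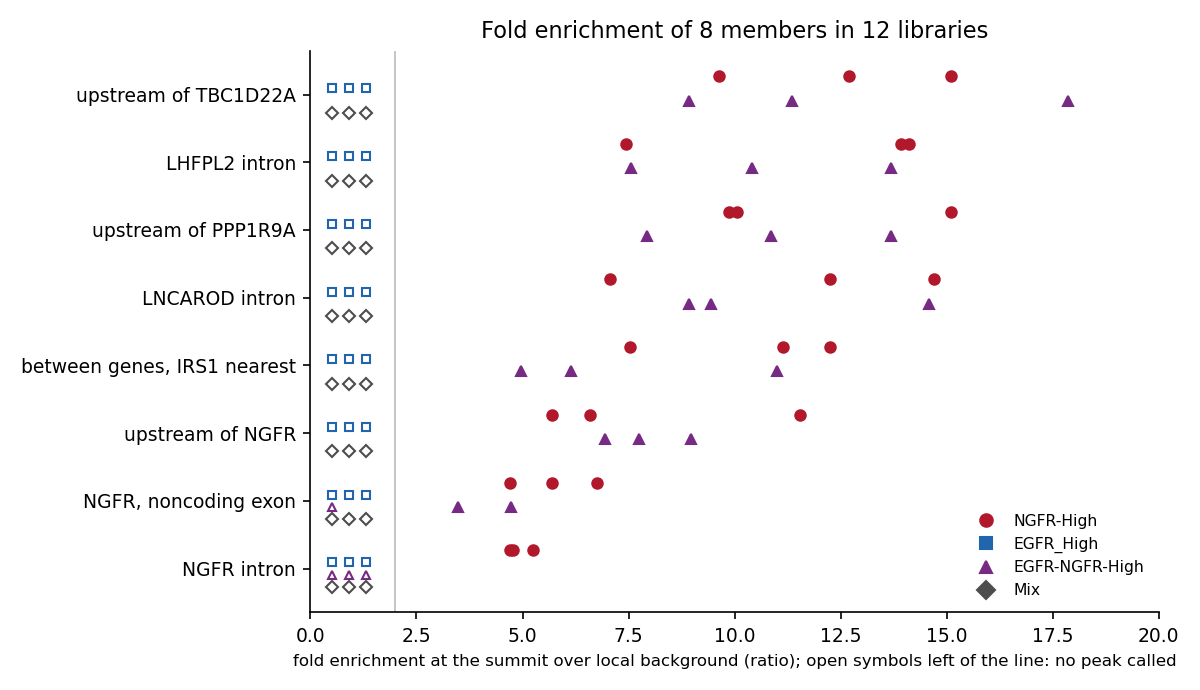
Fold enrichment at the summit (horizontal axis, ratio over local background) of 8 members in the 12 libraries: 5 of the 6 with the highest mean in NGFR-High cells and the 3 nearest to the start of NGFR. Each symbol is 1 library, and open symbols left of the line stand for libraries with no called peak. In the upper 5 members the EGFR-NGFR-High symbols overlap the range of the NGFR-High ones, with 2 of 3 below it at the member with IRS1 nearest, and no Mix symbol is filled; the member of the 6 that is not drawn had a peak in 1 Mix library.

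NGFR itself, on chr17, was the nearest protein-coding gene of 3 members. The strongest, chr17:49471033-49471655, lies at -23978 bp from the NGFR start in a lncRNA intron and had 11.5, 5.69 and 6.58 fold in NGFR-High and 7.74, 8.98 and 6.95 fold in EGFR-NGFR-High libraries, with no peak in Mix. The others lie inside the gene: chr17:49497508-49497922, at 2505 bp, had 6.76, 5.69 and 4.70 fold in NGFR-High cells and 4.73 and 3.47 fold in EGFR-NGFR-High replicates 2 and 3 only. It begins just past the end of chr17:49496006-49497496, a region with a peak in all 12 libraries. Whether this member is an edge of that region was not tested. The third, chr17:49498101-49498320, at 2923 bp and with the AP-1 word shown above, had 4.77, 5.25 and 4.70 fold in NGFR-High cells and no peak in any other library.

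Stronger regions at NGFR were open in all 12 libraries and are therefore no members. The region over the NGFR start, chr17:49494504-49495998, had 16.7, 14.0 and 14.6 fold in NGFR-High and 5.98, 8.98 and 10.3 fold in EGFR_High libraries. In EGFR-NGFR-High minus Mix cells it was higher by 0.97 on the log2 scale (limma adjusted p = 0.00271), as were chr17:49496006-49497496 in the gene (0.83, adjusted p = 0.00138) and chr17:49514804-49516533 at its other end (0.41, adjusted p = 0.00262). The neighbouring chr17:49514336-49514693, over a UTR of the gene, differed by 0.03 (adjusted p = 0.954). Of these 4 regions, 3 passed the test, all of them higher in double-positive cells. No member lay in EGFR or within 10 kb of it.

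Most members lay away from gene starts. By GENCODE annotation, 1487 members (56.0%) lay in introns and 886 (33.3%) between genes, against 52.6% and 28.6% of all regions kept. Each gene was given its outermost annotated start only. Within 1000 bp of such a start lay 140 members (5.27%, exact 95% binomial interval 4.45 to 6.19), against 12.2% of all regions kept and 5.37% of the reverse set. A further 28 overlapped coding exons, 47 UTRs and 69 noncoding exons. The median distance to the nearest start was 16.9 kb, against 13.6 kb for all regions kept and 20.3 kb for the reverse set, and to the nearest protein-coding start 51.6, 42.3 and 71.4 kb. The reverse set shared the low share at gene starts, so this was not particular to the members.

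The members were spread over 2211 nearest protein-coding genes, of which 1866 had 1 member and 18 had 4 or more. The gene with most members nearest to its start was CLIC6, with 7 of 53 regions, and all 7 lie in introns of RUNX1, a transcription factor gene beside it. Between chr21:34983112-34983429 and chr21:35324896-35325168, 6 of these 7 members had a peak in all 3 EGFR-NGFR-High libraries, and only 1 had a Mix peak (3.87 fold in replicate 3). The strongest, the first of them, had 9.54, 9.18 and 5.17 fold in NGFR-High and 12.2, 8.03 and 8.93 fold in EGFR-NGFR-High libraries and holds an AP-1 and a SOX word. The remaining member had a peak in EGFR-NGFR-High replicates 1 and 2. RUNX1 had 26.7 CPM (UMIs of a gene per fixed total of UMIs) in primed and 24.2 in drug-susceptible cells, while CLIC6, which lies outside this interval, had 1 UMI in all primed cells.

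TENM2, a gene for a synaptic adhesion protein, had 6 members of 65 regions, and 4 of them lie in its introns. ADGRL2, CDH13, CDH18, SVIL, TLE1 and TNP1 had 5 each, of 78, 34, 45, 34, 56 and 45 regions. The 5 members nearest to SVIL, the gene of the actin-binding protein supervillin, had no Mix peak, and 4 of them hold an AP-1 word. Of the 5 at CDH13, a cadherin without a cytoplasmic tail, chr16:82627389-82627995 lies in an intron at 536 bp from the start and had 5.96, 3.94 and 5.17 fold in NGFR-High and 5.95, 6.14 and 6.95 fold in EGFR-NGFR-High libraries, with no Mix peak. Another CDH13 member upstream, chr16:82605151-82605432, was open in all 3 Mix libraries too (4.93, 5.18 and 3.87 fold). The 5 nearest to TNP1 lie in introns of the lncRNA DIRC3-AS1, and 1 of them, chr2:216918090-216918616, reached 12.8, 10.4 and 8.44 fold in EGFR-NGFR-High libraries, with 8.35, 7.0 and 6.11 fold in NGFR-High and no Mix peak.

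Gene lists were read by the number of genes with a member inside or within 10 kb, beside 1694 of 19962 protein-coding genes (8.49%). Among 30 genes of neural crest and glia 8 had a member (26.7%), among 16 genes of the EGFR family 3 (18.8%), and among 10 markers of other cell types 2. Lists near the background were primed markers (2 of 20), melanocyte genes (2 of 20), TGF-beta genes (2 of 23), AP-1 genes (1 of 16), YAP and TEAD genes (1 of 17) and the neurotrophin system (1 of 17). The neural crest and glia genes had a median of 6 regions per gene and a median length of 27.8 kb, against 5 regions and 27.5 kb over all protein-coding genes, but some of those with a member were rich in regions, with 68 at SOX5 and 29 each at ETS1 and MBP. The EGFR family had a median of 8 regions and 75.3 kb. These counts are small, the lists were chosen with earlier results known, and no list was tested.

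The neural crest and glia genes with a member included NGFR, SOX5, TWIST1, ETS1, AQP1, L1CAM and MBP. In an intron of AQP1, a water channel, chr7:30920967-30921507 had 7.95, 4.37 and 6.11 fold in NGFR-High and 5.65, 5.20 and 4.47 fold in EGFR-NGFR-High libraries and no Mix peak, and holds AP-1 and TEAD words. Beside TWIST1, a transcription factor of mesenchymal cells, chr7:19016063-19016430 had 3.18, 3.50 and 5.64 fold in NGFR-High and 8.93, 3.78 and 5.46 fold in EGFR-NGFR-High libraries and no Mix peak. The members at SOX5, a SOX factor of the neural crest, and L1CAM, a neural adhesion gene, went the other way: that at SOX5 (chr12:23684173-23684523) had a peak in all 3 Mix libraries and in EGFR-NGFR-High replicates 1 and 3, and that at L1CAM in Mix replicates 2 and 3 only. Members of 1 gene list were therefore open in different sorts.

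Among the EGFR family, a member in an intron of the ligand gene NRG1, chr8:32331381-32332014, had 5.17, 5.25 and 4.70 fold in NGFR-High and 10.7, 5.67 and 6.95 fold in EGFR-NGFR-High libraries and no Mix peak. A member in the ligand gene NRG2 (chr5:139961323-139961869) had 6.76, 4.37 and 4.23 fold and 8.33, 4.73 and 4.96 fold, with 4.93 fold in Mix replicate 1. That in the receptor gene ERBB4 (chr2:212175132-212175497) had a peak in all 3 Mix libraries (7.17, 5.66 and 4.84 fold). Of the TGF-beta genes, SMAD7, an inhibitor of the pathway, had a member at -9713 bp from its start, chr18:48960484-48960868, with 6.36, 4.37 and 3.29 fold in NGFR-High and 8.03, 7.56 and 8.44 fold in EGFR-NGFR-High libraries and none in Mix, and an AP-1 word. TGFB2, a ligand, had an intron member open in NGFR-High cells (4.37, 5.25 and 7.52 fold) and in EGFR-NGFR-High replicates 1 and 2. The remaining hits were PDGFRB, a growth factor receptor among the primed markers, BATF3 of the AP-1 list with a member at -683 bp from its start, VGLL3, a TEAD cofactor gene whose member was open in all 3 Mix libraries, and CD14 and PECAM1.

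The melanocyte genes MITF and PMEL each had a weak member nearby. In an intron of MITF, chr3:69918119-69918379 had 3.98, 4.81 and 3.76 fold in NGFR-High cells, no peak in EGFR-NGFR-High and 3.77 fold in Mix replicate 2. Near PMEL, chr12:55953069-55953619 over a coding exon of DGKA had 3.58, 4.37 and 4.70 fold in NGFR-High cells and 4.24 and 5.81 fold in Mix replicates 2 and 3. Neither had a peak in a double-positive library.

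DNA words were counted in the 300 bp around each member's summit, with every word searched on both strands, and set beside all 152014 regions kept and the reverse set. AP-1 words (TGANTCA) were found in 874 members (32.9%), against 21.4% of all regions kept and 17.0% of the reverse set. TEAD words (GGAATG) were found in 26.2% of members, against 20.7% and 20.2%, and the POU octamer (ATGCAAAT) in 4.06%, against 2.26% and 2.15%. SOX words (ACAATGG or ACAAAGG) were found in 15.2%, against 13.2% and 9.84%. Regions next to the rule lay between members and all regions kept for these words. With 3 NGFR-High and 1 EGFR_High peaks the AP-1, TEAD, POU and SOX shares were 26.7%, 23.3%, 3.11% and 14.8%. With 2 NGFR-High and 0 EGFR_High peaks they were 28.4%, 23.2%, 2.92% and 13.3%. AP-1 and TEAD words occurred together in 228 members (8.58%), against 4.75% of all regions kept and 3.40% of the reverse set, and 1341 members (50.5%) held at least 1 of them, against 37.4% and 33.8%. FOX words (TGTTTAC) were found in 5.38%, against 4.24% and 5.37%. The words of lower share than in all regions kept included the E-box words of MITF (CACGTG or CATGTG; 22.9%, against 25.5% and 27.7%), the CTCF core (AGGTGGC or AGGGGGC; 7.94%, against 13.9% and 6.98%), the ETS word (CCGGAAG; 1.24%, against 2.79% and 1.07%) and the TFAP2 word (GCCNNNGGC; 10.3%, against 11.7% and 6.44%). RUNX words (TGTGGTT) were found in 11.4%, against 10.9% and 12%, NFKB words (GGAATTTCC) in 0.602%, against 0.620% and 0.894%, and SMAD words (GTCTAGAC) in 5 members (0.188%), against 0.201% of all regions kept and none of the reverse set. The mean GC content was 44.9% in members, 47.2% in all regions kept and 43.4% in the reverse set, and its part in these shares was not tested.

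The AP-1 share differed among the members with their state in the other sorts. It was 10.4%, 17.9%, 28.0% and 46.1% in members with a peak in 0, 1, 2 and 3 EGFR-NGFR-High libraries. With 0, 1, 2 and 3 Mix libraries it was 41.2%, 26.6%, 20.5% and 18.5%. In the 704 members found in all EGFR-NGFR-High and no Mix libraries it was 53.8%, while in the 6590 other regions of that state it was 50.1%. The AP-1 share of these members lay close to that of other regions with the same EGFR-NGFR-High and Mix state. Members found in all 3 Mix libraries lay at 18.5%, under the 21.4% of all regions kept, and held SOX words in 20.2%. The TEAD share moved less across the EGFR-NGFR-High classes, from 22.5% in members with 0 to 27.6% in members with 3 libraries. With 0, 1, 2 and 3 Mix libraries it was 30.2%, 24.4%, 20.3% and 16.1%. The POU share lay between 3.3% and 4.43% in the EGFR-NGFR-High classes and between 2.42% and 6.04% in the Mix classes, where it did not follow the number of libraries.

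**Figure D4:**
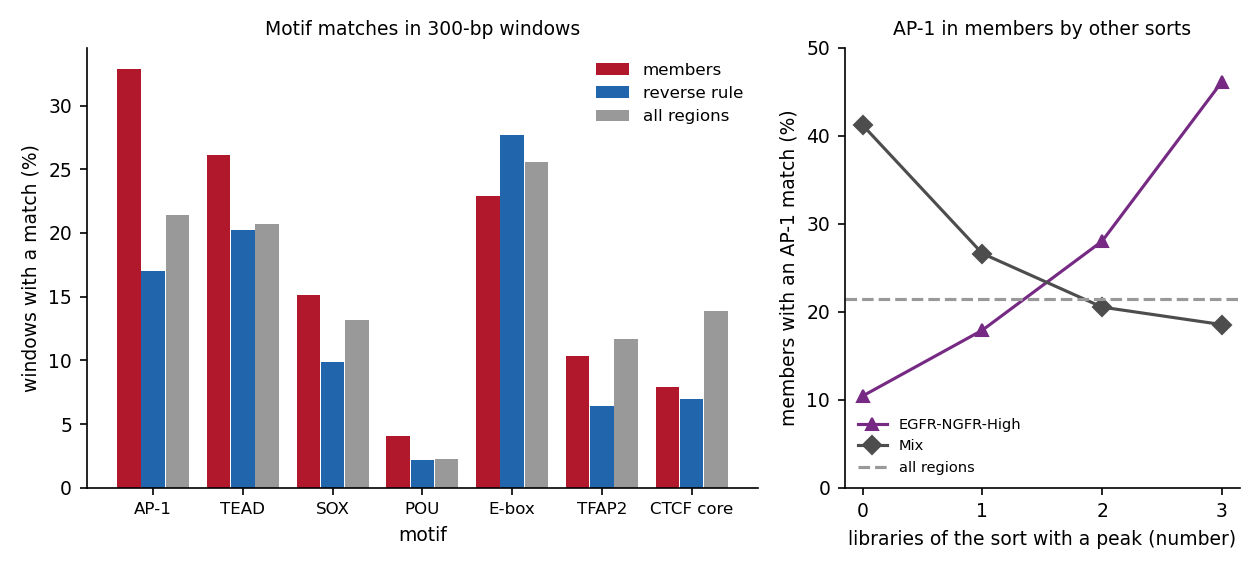
Left: percent of 300-bp windows with a match to each of 7 motifs (vertical axis) in the members, the regions of the reverse rule and all regions kept. Right: percent of members with an AP-1 match by the number of EGFR-NGFR-High or Mix libraries with a peak (horizontal axis), with all regions as a dashed line at 21.4%. The share rises to 46.1% with EGFR-NGFR-High libraries and falls to 18.5% with Mix libraries.

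Member windows with a POU word often lay in repeated DNA. A window was counted as repeated where any 24-base stretch of it occurred at least 100 times in the hg38 chromosomes in the same orientation, a choice made after seeing the data. By this count 14.1% of 2655 member windows and 12.7% of 7593 windows of every 20th region kept were repeated. Among members the share was 34.3% of the 108 windows with POU and 10.9% of the 874 with AP-1, and in every 20th region 21.1% of windows with POU and 13.0% with AP-1. For the other words it lay between 3.03% and 16.9% of member windows, apart from NFKB (5 of 16) and SMAD (3 of 5), which few members hold. Without repeated windows the POU word was in 3.11% of 2281 members and 2.20% of the 6630 windows left of every 20th region, and AP-1 in 34.2% and 21.8%. Of the members named by their values above, those beside PPP1R9A and L1CAM and in introns of ITPR2 and MITF, both CDH13 members and 2 of the 5 nearest to SVIL were repeated. How reads from repeated DNA were placed bears on these windows and was not tested.

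The members were unevenly spread over chromosomes. Their share of a chromosome's regions was 3.01% on chromosome 5, 2.54% on chromosome 6 and 2.38% on chromosome 10, and 0.889% on chromosome 8, 1.01% on chromosome 4 and 1.13% on chromosome 7, with a median of 1.85% over 23 chromosomes. The reverse set was placed the other way, with 0.778% on chromosome 8, 0.676% on chromosome 4 and 0.207% on chromosome 5. On some chromosomes the signal of all regions differed in the same direction. Over the 78272 regions with a peak in all 12 libraries, none of which can be a member, the median log2 fold enrichment on chromosome 5 was 0.07, 0.00 and 0.04 in NGFR-High and -0.09, -0.09 and -0.16 in EGFR_High libraries, after centring each library. NGFR-High minus EGFR_High was 0.15 on chromosome 5, -0.15 on chromosome 4 and -0.11 on chromosome 8. Chromosomes 6, 10, 21 and 17 had differences of 0.08, 0.09, 0.08 and 0.09 and member shares of 2.54%, 2.38%, 2.29% and 2.02%, over the median. Chromosome 15 was low in both, at -0.07 and 1.46%. Chromosomes 20, 16 and 19 went otherwise, with differences of 0.11, 0.09 and 0.07 and member shares of 1.88%, 1.74% and 1.39%, close to the median or under it. The libraries of both sorts did not overlap on 12 of 23 chromosomes. The part of such chromosome-wide differences in the choice of members was not tested. Without chromosomes 4, 5 and 8, an exclusion made after seeing the data, 2267 members were left, of which 26.0% had a peak in all EGFR-NGFR-High and no Mix libraries and 32.6% an AP-1 word. This exclusion left differences of up to 0.11 on other chromosomes in place.

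**Figure D5:**
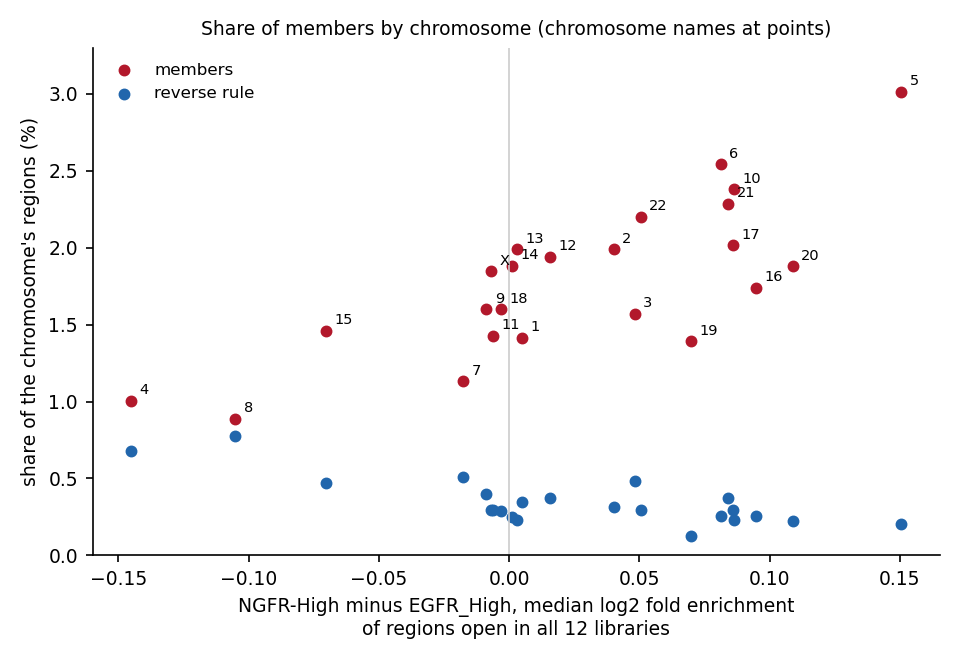
Percent of each chromosome's kept regions that are members or belong to the reverse rule (vertical axis) against the difference of NGFR-High and EGFR_High in the median log2 fold enrichment of regions with a peak in all 12 libraries (horizontal axis). Each point is 1 chromosome, named beside its member share. Chromosome 5 lies at 0.15 with 3.01% of its regions as members, and chromosomes 4 and 8 lie below 0 with 1.01% and 0.889%.

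Expression of the genes at members was read from the single-cell experiment as UMI counts summed over 2843 primed and 9688 drug-susceptible cells, expressed as CPM, the UMIs of a gene over a fixed total of UMIs. Per the study's methods for its first such experiment, the cells had been barcoded and sorted into a well of mixed and a well of EGFR/NGFR-high cells, which grew for a few divisions before sequencing. The primed cells therefore include progeny of cells chosen for these 2 proteins. Cells are not replicates, so ratios are given with no test, and exact Poisson intervals cover counting error only. Of 154 genes with a member within 1000 bp of a start, 65 were in the expression table and 38 had at least 1 CPM in either state. The median CPM ratio of primed over drug-susceptible cells of these 38 genes was 1.1, against 1.04 for 10151 genes with any kept region at a start, and 11 of 38 (28.9%) were over 2-fold higher, against 11.5%, while 1 of 38 (2.63%) was over 2-fold lower, against 6.95%. Most of these 38 genes thus differed by less than 2-fold between the states, and a minority were over 2-fold higher in primed cells. The other genes with a member at a start were not in the expression table or had under 1 CPM.

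The largest ratios among those with at least 20 CPM were at ANKRD29, OASL, CDH13 and DLC1. ANKRD29, a gene of an ankyrin repeat protein, had 24 CPM in primed cells (95% interval 23.3 to 24.7) against 0.279 (0.237 to 0.327) in the other state, which is a ratio of 86.1 (124 in replicate r1 and 52.4 in r2). Its member, chr18:23662418-23662657, had 5.17, 4.37 and 4.23 fold in NGFR-High cells, 3.87 fold in EGFR-NGFR-High replicate 1 and no Mix peak. OASL, an interferon-induced gene, had 23.6 against 0.729 CPM (ratio 32.3, with 20 in r1 and 41.9 in r2), and its member, chr12:121038710-121039103, had 5.96, 10.1 and 6.58 fold in NGFR-High and 6.55, 7.56 and 4.47 fold in EGFR-NGFR-High libraries and none in Mix. CDH13 had 23.9 against 0.829 CPM (ratio 28.8, with 23.8 in r1 and 43.7 in r2), and DLC1, a GTPase-activating protein gene, 73.8 against 26.1 CPM (ratio 2.82). The next were WASHC4 (ratio 1.55), STK11 (1.39), DUSP11 (1.26) and FGD5-AS1 (1.2). At the other end were ATP6AP1 (ratio 0.617), RPSA (0.714), ATP5PO (0.855), EMC6 (0.873), MRPL47 (0.917), NDUFB5 (0.921), STAMBP (0.968) and NSFL1C (1.01). RPSA shares sequence with many pseudogenes, so its counts are uncertain.

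Nearest protein-coding genes gave a like picture. Of 1439 such genes with at least 1 CPM, 22.4% were over 2-fold higher in primed cells, against 13.4% of 11144 genes nearest to any kept region, with medians of 1.1 and 1.04. The share over 2-fold lower in primed cells was also larger, 9.94% against 7.82%. For the 430 genes nearest to members found in all EGFR-NGFR-High and no Mix libraries the share over 2-fold higher was 29.1% (median 1.18) and that over 2-fold lower 8.60%, and for the 162 genes nearest to members found in all 3 Mix libraries 16% (median 1.05) and 9.88%. Of 51 genes with 3 or more members, 20 (39.2%) were over 2-fold higher (median 1.47) and 2 over 2-fold lower, while of 809 genes with at least 26 kept regions, 25.1% were higher (median 1.09) and 17.1% over 2-fold lower. SVIL had 58.9 against 10.7 CPM (ratio 5.5), and NGFR had 30.1 against 1.1 CPM (ratio 27.4, with 70.1 in replicate r1 and 14.3 in r2). EGFR, with no member, also had a high ratio, with 48.1 against 3.37 CPM (14.3), so that the primed state, of cells partly grown from a sort on both proteins, does not tell the 2 sorts of the rule apart. TENM2 and CDH18 were under 1 CPM in both states, and MITF and PMEL, each with a weak member, and SOX5 were lower in primed cells (45.7 against 313, 66.8 against 2158 and 12.3 against 37.6 CPM).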

How the data were processed

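ATAC-seq peak lists of 12 libraries of sorted WM989 cells and 1 single-cell experiment were used. Per the study's methods and processing notes, the authors aligned paired-end reads to hg38 with Bowtie2 2.3.4.1, filtered them with SAMtools 1.1, removed duplicates with picard and called peaks in each library with MACS2 2.1.1.20160309. The deposited lists give fold enrichment, a ratio over local background, and the −log10 of the q-value. Repeated intervals of a list were dropped and overlapping peaks merged, and a region's value in a library is that of its highest peak. For single cells the authors deposited UMI counts made with Cell Ranger, whose version is not given in the sources used here, and removed low-quality cells and likely doublets. Counts were summed over the authors' states and scaled to CPM. The table holds 12512 barcodes in 8 libraries, of which 19 occur in more than 1.

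Regions were placed with GENCODE 44, where a promoter lies within 1000 bp of the start of any gene. Starts of a gene's other transcripts were not used, so promoter shares, distances and nearest genes rest on the outermost start of each gene. EGFR-NGFR-High and Mix libraries were compared with limma 3.58.1 in R 4.3.3 (two-sided, trend, Benjamini-Hochberg at 0.05) on log2 fold enrichment, centred on regions with a peak in all 12 libraries. It was tested on simulated data. Other steps used Python 3.11.15. The NGFR-High and EGFR_High libraries chose the members and enter no test.

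Named regions were the 6 members with the highest mean fold enrichment in NGFR-High cells, those past the limma threshold, the 3 just inside the threshold and those nearest to NGFR. Named genes were the 8 with most members nearest, those of the gene lists with a member within 10 kb, and the 8 at each end of the CPM ratio with a member at the start and at least 20 CPM. A few genes and 1 region that these rules or the marker lists name are not reported here. The members and lists were chosen with earlier results of these data known. Alternatives were other peak thresholds, summits, scalings, windows, annotation limits and CPM filters, a replicate block and leaving out each library. The other single-cell experiments were not used here.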

Additional observations from a re-analysis of the deposited data

How the results depend on the processing

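The number of members was 620 with the 50000 highest-ranked peaks of each library and 7070 with summits within 250 bp in place of merging, and 5255 to 8535 when the rule was applied without 1 replicate of each sort, which loosens it. It was 1954 with the same number of peaks (148575) in every library and 3003 with peaks of −log10 q of at least 5. The reverse set, 559 regions above, held 719 with the same number of peaks, 397 with the 50000 highest-ranked peaks and 264 with −log10 q of at least 5. Chosen anew in these ways, after seeing the data, 22.7% of members (equal number), 32.1% (50000 peaks) and 22.9% (−log10 q of at least 5) had a peak in all EGFR-NGFR-High and no Mix libraries, against 4.09%, 3.92% and 4.72% of all regions, and the range without 1 library was 27.4% to 35.9%. The opposite state, 0.414% of members, took 0.716% with an equal number, 0.806% with 50000 peaks and 0.466% with −log10 q of at least 5. Over all regions its shares in these settings were 1.27%, 2.11% and 0.784%. Without 1 library it took 0.677% to 1.28% of members. The mean Mix share was 31.3% with −log10 q of at least 5. In limma, 2 of 109 members were higher and 1 lower without centring (7019 and 4065 of 86514 regions), and 6 and 9 of 491 with a peak in 2 of 3 libraries of each sort (7922 and 6595 of 103995). The counts were 1 and 0 of 109 with the mean of summits (2338 and 1336 of 86514). They were 514 and 18 of 2657 with the lowest value in place of an uncalled peak (13040 and 6915 of 152014). Without 1 library the counts were 1 to 4 higher and 0 to 4 lower, beside 4434 to 6637 and 4001 to 5807 over all regions tested. With a replicate block 2 members were higher and 2 lower, beside 7839 and 7355 of 86514 regions. Each library's deviation from the mean of its sort was taken region by region. These deviations correlated at 0.05, 0.01 and 0.11 between same-numbered EGFR-NGFR-High and Mix libraries, and between -0.08 and 0.04 for differently numbered ones. Whether the numbers pair the libraries was not tested. The median log2 difference of tested members, -0.10, was 0.05 without Mix replicate 1, 0.33 with the lowest value in place of an uncalled peak and between -0.12 and -0.02 in the other settings. Within 3000 bp of any start lay 14.3% of members and within 1000 bp of a protein-coding start 2.07%, against 22.1% and 7.91% of all regions. The AP-1 share was 38.1% in windows of 500 bp, against 26.2% of all regions and 21.1% of the reverse set. The median width of the NGFR-High replicate 1 peak alone was 227.5 bp. The median CPM ratio of genes with a member at the start was 1.17 in r2 cells and 1.2 with no CPM filter. The causes of these shifts were not tested, except where an alternative by its construction loosens or tightens the rule. Among all values of such alternatives that answer a comparison, 39 moved and 28 stayed. Staying means within the spread of replicates or the counting interval of the main value (counts within 1.5 times), which is wide for rare states and words. Among those of single words or medians 18 moved, 8 of them settings of that median log2 difference, and 28 stayed. The peak lists give no read depth, so weak peaks under the caller's threshold cannot be seen.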
